A study of Mus musculus with 15 samples.

Results

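The response of tibialis anterior muscle to a form of LSMEM2 named C-del was compared with that to a mock vector in female mice. The comparison takes every library of the female count table, 7 of the 15 libraries of the series, and no library was chosen by its measured values. The animals were adult female C57BL/6 mice whose hindlimbs received adeno-associated virus of serotype AAV6, and muscle was taken 2 months after injection. The virus carried EGFP, a green fluorescent protein, in the 3 mock libraries, and LSMEM2 C-del in the 4 C-del libraries, so both groups carried a viral vector and a transgene. What C-del stands for, the promoter in the vector and the animals' exact age are not given in the labels. The labels do not tie each library to an animal of its own, so a p-value here speaks of spread among libraries that could be technical replicates.

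LSMEM2 is a small membrane protein with a leucine-rich stretch, and the title of the series places it at the neuromuscular junction and ties it to mitochondria. The tibialis anterior is a fast muscle at the front of the lower hindlimb, used to lift the foot. Immediate early genes are switched on within minutes of activity, stretch or a hormone, and many of them answer to the CREB family of transcription factors. Interferon-induced genes and genes of antigen presentation are low in resting muscle and rise when immune cells enter or signal to it.

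Total counts were 9285140 to 12054900 per library, and CPM below means counts scaled to a common library size with TMM factors. Skeletal muscle genes were high in every library, with Acta1 (skeletal actin) at 21895 to 30749 CPM, whereas the heart gene Nppa did not exceed 0.101 CPM and Myl7 was at 0. Other heart markers were not absent: Myh6 was at 3.94 to 7.69 CPM, and Actc1 was at 162, 173 and 136 CPM in mock libraries 1, 2 and 3. The 13 heart markers summed to 181, 195 and 168 CPM in those libraries and to 94.2 to 151 CPM in the C-del libraries. The 8 skeletal muscle markers summed to 128969, 102890 and 119605 CPM and to 105652 to 115517 CPM. These levels matter because the extraction text speaks of hearts while the sample labels name skeletal muscle. Uty, a Y-linked gene, did not exceed 0.338 CPM, and Xist was 28.8 to 98.4 CPM. Mock libraries 2 and 3 stood apart from the other 5 libraries by high immune genes: 27 antigen presentation genes averaged 3.21, 5.52 and 5.22 on log2(CPM + 1) for mock libraries 1, 2 and 3, and 3.22, 3.03, 2.9 and 3.03 for C-del libraries 1 to 4.

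Lsmem2, the delivered gene (chromosome 9, 107592626 to 107597990, GRCm38.p6), was at 30.8, 30 and 32.8 CPM in mock libraries 1, 2 and 3. It was at 1361, 2119, 1684 and 2705 CPM in C-del libraries 1 to 4. The groups did not overlap, and Lsmem2 rose 63-fold, with edgeR giving a log2 fold change of 5.98 ± 0.27 (SE) and an adjusted p of 3.05e-05. Reads of the mouse gene and of any matching stretch of the delivered sequence are counted together.

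Slc25a25, a mitochondrial carrier that exchanges ATP-Mg for phosphate (chromosome 2, 32414487 to 32451470), was the other gene to pass. It was at 22.8, 23.1 and 25.5 CPM in the mock libraries and at 68.3, 85.4, 98.8 and 109 CPM in C-del libraries 1 to 4. The 3 mock libraries lay close together, libraries 2 and 3 included, and every C-del library was above them. The mean rose 3.79-fold, from 23.8 ± 1.49 (SD, n = 3) to 90.3 ± 17.6 CPM (SD, n = 4). Its log2 fold change was 1.92 ± 0.17 (SE; edgeR, adjusted p = 0.00485). Without mock library 3 the log2 fold change was 1.97 and the adjusted p was 0.0665, no longer under 0.05. The related carriers did not pass: Slc25a23 had a log2 fold change of 0.25 (edgeR, adjusted p = 0.556) and Slc25a24 of -0.64 (adjusted p = 0.38).

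In all, edgeR called 2 of 14220 entries at an adjusted p under 0.05, or 0.0141%, both higher with C-del. At an unadjusted p under 0.05 there were 684 higher entries (4.81%) and 1008 lower ones (7.09%). DESeq2, run as an alternative on the same counts, called 118 higher (0.83%) and 258 lower entries (1.81%). Of those 376 calls, 243 were of the set, defined next, that was lower with C-del and followed mock libraries 2 and 3. Without mock library 1, edgeR called 1050 entries, of which 611 were of that kind, and without mock library 3 it called 1, Lsmem2.

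To keep the genes that move with the immune signal apart, each tested gene was described by where the mock libraries lay on log2(CPM + 1). A gene was set apart when all 3 mock libraries lay on one side of all 4 C-del libraries, the mean of mock libraries 2 and 3 differed from the C-del mean by at least 1.5-fold, and mock library 1 showed at least 0.5 of that difference. A gene followed mock libraries 2 and 3 when those libraries lay on one side of all C-del libraries, with the same margin between the means, and mock library 1 showed less than that share. By this description 125 genes were set apart and higher with C-del (0.879% of those tested), and 36 were set apart and lower (0.253%). Another 232 genes followed mock libraries 2 and 3 and were higher with C-del (1.63%), and 801 followed them and were lower (5.63%). Copies of a gene at further loci count as entries of their own here. They made up 11 of the 125, 0 of the 36, 9 of the 232 and 77 of the 801. The classes are a description of 7 libraries and carry no test. In a set-apart gene the groups are separate by definition, so that separation is no further result for the genes below. Groups that did not overlap at all made up 1436 genes (10.1%). The counts move with single libraries: without C-del library 1 or without mock library 2, 295 and 269 genes in place of 161 were set apart, and without mock library 2 the genes that followed mock library 3 alone came to 2687 in place of 1033.

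**Figure D1:**
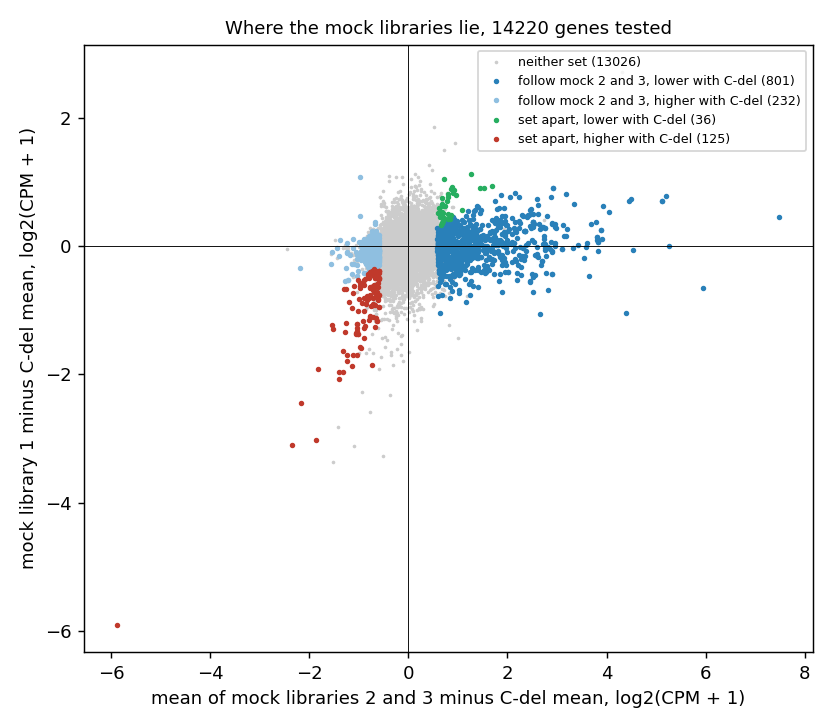
Each point is a tested gene, with the difference of the mean of mock libraries 2 and 3 from the C-del mean on the horizontal axis and that of mock library 1 on the vertical axis, both on log2(CPM + 1). The 801 genes that follow mock libraries 2 and 3 spread to the right near zero on the vertical axis, the 125 higher set-apart genes lie at the lower left, and the lone point at the far lower left is Lsmem2.

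After Lsmem2 and Slc25a25, the set-apart genes with the smallest p included regulators of transcription and signalling. The next 7 entries shared an adjusted p of 0.0686 (edgeR), so none passed: Klf10, Sik1, Tob2, Apold1, Nr4a1, Bcl6b and a second locus copy of Bcl6b. Sik1, a kinase that holds back the CREB coactivators, was at 7.68, 15.8 and 10.3 CPM in the mock libraries and 39.2, 36.4, 32 and 35.6 CPM in C-del libraries 1 to 4. Its lowest C-del library was above 15.8 CPM, the highest mock value, and its log2 fold change was 1.65 ± 0.21 (SE). Nr4a1, an orphan nuclear receptor induced by activity and by cyclic AMP, was at 141, 106 and 151 CPM with mock and 314, 241, 265 and 297 CPM with C-del. Here mock library 2 was the lowest of all 7, and the log2 fold change was 1.08 ± 0.15.

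Klf10, a zinc finger repressor induced by TGF-beta, was at 15.1, 20.2 and 16.3 CPM in the mock and 43.9, 32.8, 39.5 and 36.8 CPM in the C-del libraries (log2 fold change 1.15 ± 0.14, SE). Tob2, an antiproliferative protein that binds the mRNA deadenylation machinery, was at 50.4, 60.1 and 50.4 and 95.6, 97.2, 99.2 and 121 CPM in the same order of libraries (log2 fold change 0.95 ± 0.12). Both are set-apart genes, so their groups were separate by definition, and mock library 1 was at or below the other mock libraries. Of 13 Kruppel-like factors tested, 3 were set apart and higher, Klf10, Klf4 (log2 fold change 0.71) and Klf11 (1.07), and 4 had an unadjusted p under 0.05, all higher. Of 5 TOB and BTG genes, 2 were set apart and higher, whereas Btg1 followed mock libraries 2 and 3, at 13.8, 45 and 27.7 CPM with mock and 11.2 to 14 CPM with C-del. Among all tested entries, 0.879% were set apart and higher, and 4.81% were higher at an unadjusted p under 0.05.

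**Figure D2:**
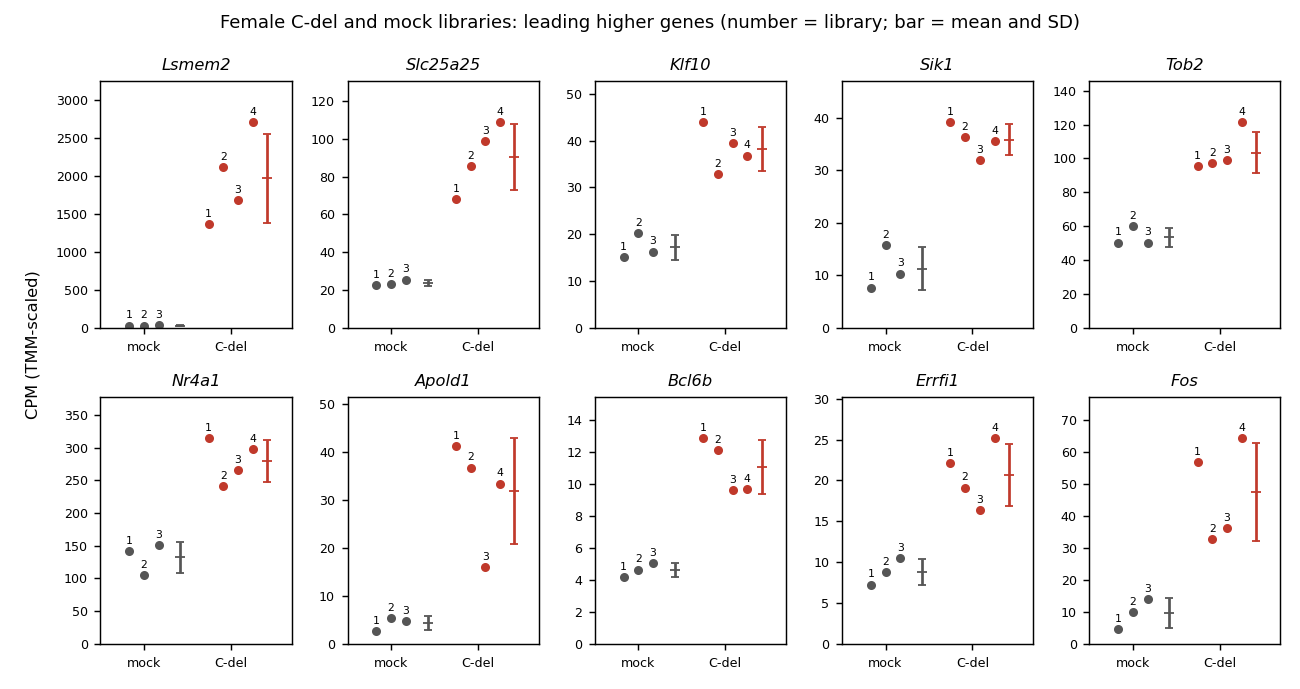
CPM of 10 genes in each library, with mock libraries in grey, C-del libraries in red, library numbers beside the points and bars for the mean and SD (n = 3 and n = 4). All 10 are higher set-apart genes, so by definition the lowest C-del library lies above the highest mock library. The vertical axes start at 0.

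Over the list of 39 immediate early genes tested, 20 were higher and 3 lower when p under 0.05 was read without adjustment, and none passed after adjustment. Among all tested entries, 4.81% were higher and 7.09% lower by that threshold. The list's median log2 fold change was 0.45, against -0.01 over all genes tested. Of its members, 13 were set apart and higher, none was set apart and lower, and 4 followed mock libraries 2 and 3 downward. Over all tested genes the shares of these classes were 0.879%, 0.253% and 5.63%. The list was drawn up with earlier results of these libraries known, so its direction is no independent evidence. Fos, a subunit of the AP-1 transcription factor, was at 4.72, 9.92 and 14.1 CPM with mock and 56.8, 32.8, 36.1 and 64.4 CPM with C-del (log2 fold change 2.31 ± 0.38, SE; edgeR, adjusted p = 0.11). Its relatives Fosl2 and Fosb had log2 fold changes of 1.14 and 2.69. The zinc finger factors Egr1 and Egr3 had 1.77 and 2.8. Egr1 was uneven within the C-del group, at 123, 99.6, 30.9 and 71.9 CPM, and C-del library 3 came close to the mock range of 17.8 to 27.6 CPM.

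Errfi1, Dusp1, Ccn2 and Amotl2 were other higher set-apart genes, and none passed. Errfi1, an inhibitor of the EGF receptor, was at 7.24, 8.77 and 10.5 CPM with mock and 22.1, 19.1, 16.4 and 25.2 CPM with C-del (log2 fold change 1.23 ± 0.19, SE; edgeR, adjusted p = 0.0775). Dusp1, a phosphatase that turns off MAP kinases, had a log2 fold change of 0.83, and its lowest C-del library at 84.4 CPM stood just above mock library 3 at 77.6 CPM. Ccn2, a matrix protein, and Amotl2, a scaffold protein, both targets of YAP and TAZ, had log2 fold changes of 1.23 and 0.8. Of 30 CREB and SIK pathway genes, 12 were higher and none lower at an unadjusted p under 0.05, where 4.81% and 7.09% of all tested entries were. In this list 1 gene (Slc25a25) passed, and the median log2 fold change was 0.28. That list and the immediate early list share members such as Nr4a1 and Fos. The CREB and SIK list was also drawn up with earlier results of these libraries known, so its direction is no independent evidence.

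Promoter windows were searched for the letters TGACGTCA, the palindromic cyclic AMP response element, and for its core TGACG, on both strands, where each full element also counts as a core. The RefSeq window on GRCm38.p6 runs from 250 bases before to 50 bases after a gene's start. In the higher set-apart genes, the core was present in 26 of 86 genes with a window (30.2%) and in 3685 of 10612 tested genes (34.7%). The full element was present in 4 of them (4.65%) and in 364 of all (3.43%). Of the lower set-apart genes with a window, 3 of 22 held the full element (13.6%) and 7 the core (31.8%). Shares are per gene, and genes had 1.47 windows on average in the higher set, 1.18 in the lower set and 1.29 over all. In the list of immediate early genes 21 of 29 held the core (72.4%). The search was planned for the 15 named higher set-apart genes with the smallest p, Slc25a25 included, and these wider sets were added. Of those 15, 11 had a window and 5 of the 11 held the core. In all 18 shares were computed, for 3 motifs in 6 gene sets, and a match is a description of letters, not a bound site.

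The windows of 3 higher set-apart genes are shown, Slc25a25 because it passed and Errfi1 and Nr4a1 because they hold the same letters, with every match in capitals. Slc25a25 has 3 windows in the table, and only the one at chr2:32424017-32424316 on the minus strand, shown here, holds a match, which begins 150 bases before that start. The windows of Errfi1 (chr4:150854820-150855119, plus strand) and Nr4a1 (chr15:101266596-101266895, plus strand) follow.
Slc25a25: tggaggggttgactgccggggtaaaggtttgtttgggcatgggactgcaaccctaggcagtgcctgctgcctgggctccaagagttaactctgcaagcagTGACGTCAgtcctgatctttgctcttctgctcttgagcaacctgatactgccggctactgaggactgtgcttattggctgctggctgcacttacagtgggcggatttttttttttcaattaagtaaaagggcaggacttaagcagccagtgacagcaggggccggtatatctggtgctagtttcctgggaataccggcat
Errfi1: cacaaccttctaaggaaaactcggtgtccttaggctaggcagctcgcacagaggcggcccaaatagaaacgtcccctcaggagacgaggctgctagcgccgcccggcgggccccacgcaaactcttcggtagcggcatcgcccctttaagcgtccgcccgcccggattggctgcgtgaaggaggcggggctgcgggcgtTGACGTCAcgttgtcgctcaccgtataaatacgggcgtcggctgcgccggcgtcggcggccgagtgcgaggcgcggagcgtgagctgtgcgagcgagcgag
Nr4a1: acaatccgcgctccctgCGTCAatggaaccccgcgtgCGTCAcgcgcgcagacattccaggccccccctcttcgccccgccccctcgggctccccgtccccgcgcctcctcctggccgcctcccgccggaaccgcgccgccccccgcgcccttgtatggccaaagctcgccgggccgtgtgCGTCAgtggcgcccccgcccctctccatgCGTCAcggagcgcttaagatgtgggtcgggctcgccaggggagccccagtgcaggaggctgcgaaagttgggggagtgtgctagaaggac
Slc25a25 and Errfi1 each hold the full element, and Nr4a1 holds 4 cores on the opposite strand and no full element.

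Genes of blood vessels were also among the higher set-apart genes. Apold1, an endothelial protein induced by early signals, was at 2.63, 5.44 and 4.73 CPM with mock and 41.3, 36.8, 16.1 and 33.4 CPM with C-del. C-del library 3 was the lowest of its group and still above every mock library, and the log2 fold change was 2.88 ± 0.37 (SE; edgeR, adjusted p = 0.0686). Bcl6b, a transcriptional repressor enriched in endothelium, was at 4.17, 4.65 and 5.06 CPM with mock and 12.9, 12.1, 9.64 and 9.67 CPM with C-del (log2 fold change 1.26 ± 0.17). Ednrb, an endothelin receptor, was at 11, 9.56 and 6.82 and 18.8, 20.1, 17.6 and 18.8 CPM (log2 fold change 1.04 ± 0.16). Of 25 endothelial markers, 10 were higher at an unadjusted p under 0.05 and 1 was lower, where 4.81% and 7.09% of all tested entries were. The markers' median log2 fold change was 0.21. The lower one was Sox18, an endothelial transcription factor, at 11.2, 11.4 and 14.2 CPM with mock and 5.01, 5.33, 7.02 and 7.15 CPM with C-del (log2 fold change -1.0 ± 0.18). Apold1, Bcl6b and Ednrb are themselves among the 25 markers, and Apold1 is also on the immediate early list. The endothelial list was drawn up with earlier results of these libraries known, so its direction is no independent evidence.

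The summed level of the 25 endothelial markers was 665, 659 and 719 CPM in mock libraries 1, 2 and 3 and 794 to 835 CPM in the C-del libraries, and none was at 0 in all C-del libraries. The receptor Flt1 and the junction protein Cdh5 had log2 fold changes of 0.44 and 0.42. In whole muscle, more endothelial cells and more RNA per cell cannot be told apart. Col8a1, a short-chain collagen, was set apart at 6.15, 6.14 and 5.72 CPM with mock and 17, 15.1, 9.04 and 9.47 CPM with C-del. Cilp, a cartilage matrix protein, was set apart too (log2 fold change 1.2 ± 0.24, SE). Lamb3, a laminin chain, was low throughout, at 1.05 to 1.1 CPM with mock and 2.42 to 3.68 CPM with C-del. The 22 collagen chains went both ways: before adjustment, 5 rose and 2 fell with p under 0.05, and none passed. Col8a1 was the 1 chain set apart and higher, and Col6a6 was the 1 set apart and lower. Col6a6 was low too, at 1.84 to 1.98 CPM with mock and 0.276 to 1.43 CPM with C-del (log2 fold change -1.53 ± 0.46, SE).

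The contractile genes gave a mixed picture. Myh2, the myosin heavy chain of type IIa fibres, was at 1875, 1563 and 2480 CPM in mock libraries 1, 2 and 3 and at 3743, 5489, 5430.2 and 4603 CPM in C-del libraries 1 to 4. Every C-del library was above every mock library, and the log2 fold change was 1.29 ± 0.19 (SE; edgeR, adjusted p = 0.0775). Myom3, an M-band protein of type IIa and slow fibres, was at 15.5, 11.8 and 14.4 CPM with mock and 25.9, 50.7, 34.3 and 52.8 CPM with C-del (log2 fold change 1.56 ± 0.25). Myl3, a slow and cardiac myosin light chain, and Fhl1, a LIM protein of the sarcomere, had log2 fold changes of 1.02 and 1.16. Myh4, the type IIb myosin that dominates this muscle, ran from 23383 to 34409.7 CPM with mock and from 22378 to 26766 CPM with C-del, and the groups overlapped. Pvalb, the calcium buffer parvalbumin of fast fibres, had a log2 fold change of -0.5 (edgeR, adjusted p = 0.239).

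Csrp3, Ankrd2 and Myoz2 were higher in C-del libraries 2, 3 and 4 than in any mock library, whereas C-del library 1 was below mock library 3. Csrp3, a LIM protein of the Z-disc, was at 20.2, 51.9 and 110.1 CPM with mock and 70.4, 329, 225 and 433 CPM with C-del, so that C-del library 1 lay below mock library 3. Ankrd2, an ankyrin repeat protein induced by stretch, was at 32.7, 62.1 and 127 and 93.1, 321, 255 and 423 CPM. Both differences have wide errors, with log2 fold changes of 2.12 ± 0.68 and 1.89 ± 0.57 (SE; edgeR, adjusted p = 0.263 and 0.23). Myoz2, a calcineurin-binding Z-disc protein, was at 55, 72 and 130.2 CPM with mock and 127, 206, 195 and 191 CPM with C-del. Actn2, an actinin of the Z-disc, had a log2 fold change of 0.75. Hspb7, a small heat shock protein of muscle, was set apart at 494, 630.4 and 882 CPM with mock and 971, 1816, 1732 and 2215 CPM with C-del (log2 fold change 1.33 ± 0.29). Of 17 slow fibre genes, 7 were higher and 1 lower by the same unadjusted threshold, and of 17 fast fibre genes 1 was higher, Myh2, and 1 lower, where 4.81% and 7.09% of all tested entries were. The slow fibre list was split, with a positive log2 fold change in 10 genes, a negative one in 7 and a median of 0.22. By library number, its genes averaged 5.65, 5.68 and 6.17 on log2(CPM + 1) with mock and 5.68, 6.41, 6.58 and 5.92 with C-del. Mock library 3 was thus above C-del libraries 1 and 4 in this list. Of the fast fibre genes, 15 had a negative log2 fold change, with a median of -0.2. Of all 14220 entries, 7456 had a negative one. The fast fibre genes averaged 12.87, 12.57 and 12.9 with mock and 12.68, 12.65, 12.72 and 12.75 with C-del on log2(CPM + 1), by library number. The groups overlapped, and mock library 2 was below every C-del library.

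**Figure D3:**
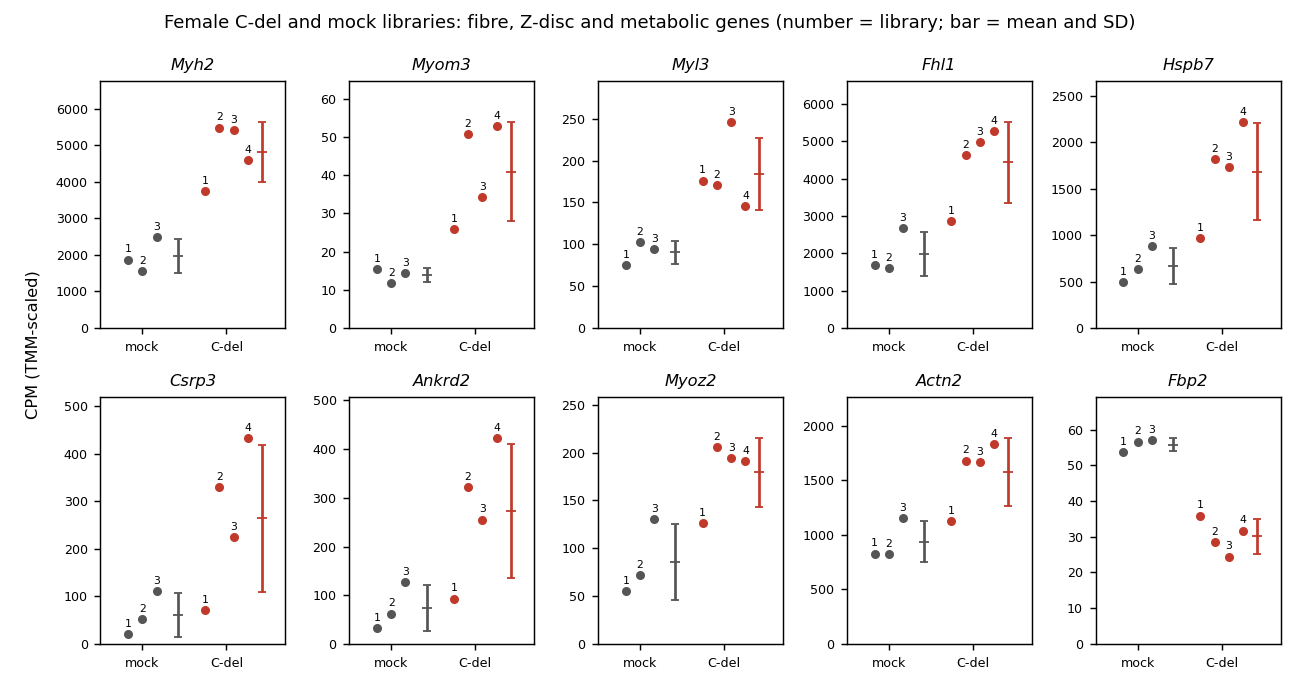
CPM of 10 fibre, Z-disc and metabolic genes in each library, with mock libraries in grey, C-del libraries in red, library numbers beside the points and bars for the mean and SD. Myh2 separates the groups, whereas in Csrp3 and Ankrd2 C-del library 1 lies below mock library 3, and Fbp2 is the gene that is lower with C-del.

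Fewer genes were set apart and lower, and none passed. Fbp2, the muscle form of fructose bisphosphatase that supports glycogen synthesis, was at 53.8, 56.7 and 57.1 CPM with mock and 36, 28.6, 24.4 and 31.7 CPM with C-del. The mock libraries were close together, and the log2 fold change was -0.89 ± 0.13 (SE; edgeR, adjusted p = 0.0775). Gpd1, which links glycolysis to glycerol phosphate, had a log2 fold change of -0.41, and Gbe1, the glycogen branching enzyme, had 0.42, neither passing. Eif4ebp1, a repressor of cap-dependent translation, was at 31.6, 29.5 and 35.1 CPM with mock and 18.3, 17.9, 21.1 and 21.8 CPM with C-del (log2 fold change -0.7 ± 0.12). Hmox1, the haem oxygenase, was at 6.04, 8.51 and 9.46 and 5.19, 3.4, 3.21 and 3.43 CPM (log2 fold change -1.07 ± 0.23).

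Other lower set-apart genes are named for their p alone, with no list behind them. Ncaph, a condensin subunit, was at 1.58 to 1.87 CPM with mock and 0.447 to 0.644 CPM with C-del. Racgap1, a regulator of cytokinesis, was at 2.41, 5.62 and 2.75 CPM with mock and 0.604 to 1.16 CPM with C-del, and mock library 2 was its highest. Rmi2, a subunit of a complex that resolves DNA junctions, had a log2 fold change of -1.7 ± 0.28 (SE), the spindle protein Tpx2 had -0.84 and the nuclear lamin Lmnb1 had -0.85. These genes are low here, and their values rest on few counts. Smpd3, a sphingomyelinase, and Barx2, a homeobox factor of muscle precursors, had log2 fold changes of -2.1 and -1.09. The related gene Lsmem1, another leucine-rich single-pass membrane protein, was at 21.4, 21.4 and 22.6 CPM with mock and 18.1, 10.3, 14.1 and 12.1 CPM with C-del (log2 fold change -0.67 ± 0.18, SE; edgeR, adjusted p = 0.186). Zfp503, Ctsc and Nxt1 completed the named genes, with log2 fold changes of -0.86, -0.66 and -0.71.

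By far the larger set followed mock libraries 2 and 3. Of 119 tested genes of the immune lists, 97 followed those libraries and were lower with C-del, 1 was set apart and lower (Gbp4, an interferon-induced GTPase) and none was in either class of higher genes. Among all tested genes, 5.63% followed those libraries and were lower, and 0.253% were set apart and lower. Mock libraries 2 and 3 were singled out by their high immune genes. The counts of immune genes here and below are thus no independent result. Iigp1, an interferon-induced GTPase that defends against intracellular parasites, was at 21.3, 426 and 538 CPM in mock libraries 1, 2 and 3 and at 11.4, 13.4, 11.2 and 12.2 CPM in C-del libraries 1 to 4. Mock library 1 was thus much closer to the C-del libraries than to the other mock libraries, and the fitted log2 fold change of -4.77 ± 0.84 (SE; edgeR, adjusted p = 0.12) rests on mock libraries 2 and 3. The GTPases Igtp and Irgm2, which are neighbours on chromosome 11, were at 9.88, 147 and 369 and at 19.1, 239 and 305 CPM in the mock libraries. In the C-del libraries they ran from 4.56 to 6.8 and from 9.04 to 12.3 CPM. Igtp (58199556 to 58207592) and Irgm2 (58214977 to 58222783) do not overlap. With strand use in counting not given, reads of genes that do overlap cannot be separated with certainty.

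Antigen presentation genes were nearly all in this set. Of 27 tested, 26 followed mock libraries 2 and 3 and were lower, where 5.63% of all tested genes did so. These same genes marked out mock libraries 2 and 3 above, so their place in this set was given in advance. The median log2 fold change of the 27 was -2.25. B2m, the light chain of class I molecules, was at 103, 696 and 555 CPM with mock and 101, 103, 81.1 and 86.5 CPM with C-del. Cd74, the invariant chain of class II molecules, was at 36.4, 661 and 411 and 55.5, 29.1, 25.8 and 31.6 CPM. Both had mock library 1 inside or near the C-del range, and H2-Q7, one of a family of near-identical class I genes, had a log2 fold change of -3.17, at 1.54, 11.2 and 6.38 CPM with mock and 0.644 to 0.761 CPM with C-del. Cd274, the checkpoint ligand PD-L1, was at 12.3, 50.2 and 52.4 CPM with mock and 5.49 to 9.93 CPM with C-del.

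Of 48 interferon-induced genes, 42 followed mock libraries 2 and 3 and were lower (median log2 fold change of the list -1.58). So did 21 of 23 macrophage and monocyte markers (median -2.58), where 5.63% of all tested genes did. On log2(CPM + 1) the interferon-induced list averaged 2.77, 4.62 and 4.53 with mock, by library number, and 2.64, 2.71, 2.42 and 2.72 with C-del. The macrophage markers summed to 125, 1109 and 533 CPM in mock libraries 1, 2 and 3 and to 90.3 to 178 CPM in the C-del libraries. Lilrb4a, an inhibitory receptor of myeloid cells, was at 1.65, 7.02 and 4.18 CPM with mock and 0.368 to 0.716 CPM with C-del. Nfam1, an immune receptor with an activation motif, was at 1.87, 6.05 and 5.17 and 0.592 to 1.21 CPM. Ptprc, the pan-leukocyte antigen CD45, was at 2.96, 79.9 and 17.7 CPM with mock, highest in library 2, and 1.01 to 3.31 CPM with C-del. Igkc, the immunoglobulin kappa constant region, was at 0, 1693 and 4.62 CPM with mock and 0.201 to 1.07 CPM with C-del, a signal of mock library 2 almost alone.

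The interferon-induced promoters are shown for contrast, searched for GAAANNGAA, letters shared by interferon response elements, on both strands. They were present in 21 of 34 interferon-induced genes with a window (61.8%) and in 908 of 10612 tested genes (8.56%). In the 560 genes with a window that followed mock libraries 2 and 3 and were lower the share was 17.1%, and in the higher set-apart genes it was 8.14%. The windows of Igtp (chr11:58199306-58199605, plus strand) and Gbp2 (chr3:142620413-142620712, plus strand) each hold 1 match, in capitals, close to the start.
Igtp: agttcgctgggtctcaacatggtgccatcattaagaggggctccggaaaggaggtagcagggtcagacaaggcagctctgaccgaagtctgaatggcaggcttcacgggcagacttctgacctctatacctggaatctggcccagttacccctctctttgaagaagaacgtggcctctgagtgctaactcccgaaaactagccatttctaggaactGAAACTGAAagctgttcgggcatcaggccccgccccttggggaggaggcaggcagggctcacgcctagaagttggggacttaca
Gbp2: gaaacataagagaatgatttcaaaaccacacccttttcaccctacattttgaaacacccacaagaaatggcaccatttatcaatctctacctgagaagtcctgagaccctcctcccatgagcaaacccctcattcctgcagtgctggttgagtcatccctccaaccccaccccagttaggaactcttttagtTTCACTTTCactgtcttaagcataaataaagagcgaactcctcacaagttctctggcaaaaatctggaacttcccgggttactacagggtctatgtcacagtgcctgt
The match begins 34 bases before the start in Igtp and 58 bases before it in Gbp2, where it reads on the opposite strand.

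Cytosolic ribosomal proteins were highest in mock library 3, and 6 of 83 met the description of following mock libraries 2 and 3 downward, as 5.63% of all genes did. All 83 tested genes had a negative log2 fold change, with a median of -0.33. On log2(CPM + 1) they averaged 7.43, 7.67 and 8.09 for mock libraries 1, 2 and 3, as against 7.37, 7.46, 7.47 and 7.45 for C-del libraries 1 to 4. Mock library 1 lay within the C-del range and mock library 3 was the highest of all 7. Mock library 3 was also the highest in complex I of the respiratory chain, at 7.8, 7.53 and 8.23 in the mock and 7.74, 7.77, 7.84 and 7.75 in the C-del libraries, while mock library 2 was the lowest. So the 36 complex I genes showed opposite departures in the 2 libraries, and none was set apart.

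**Figure D4:**
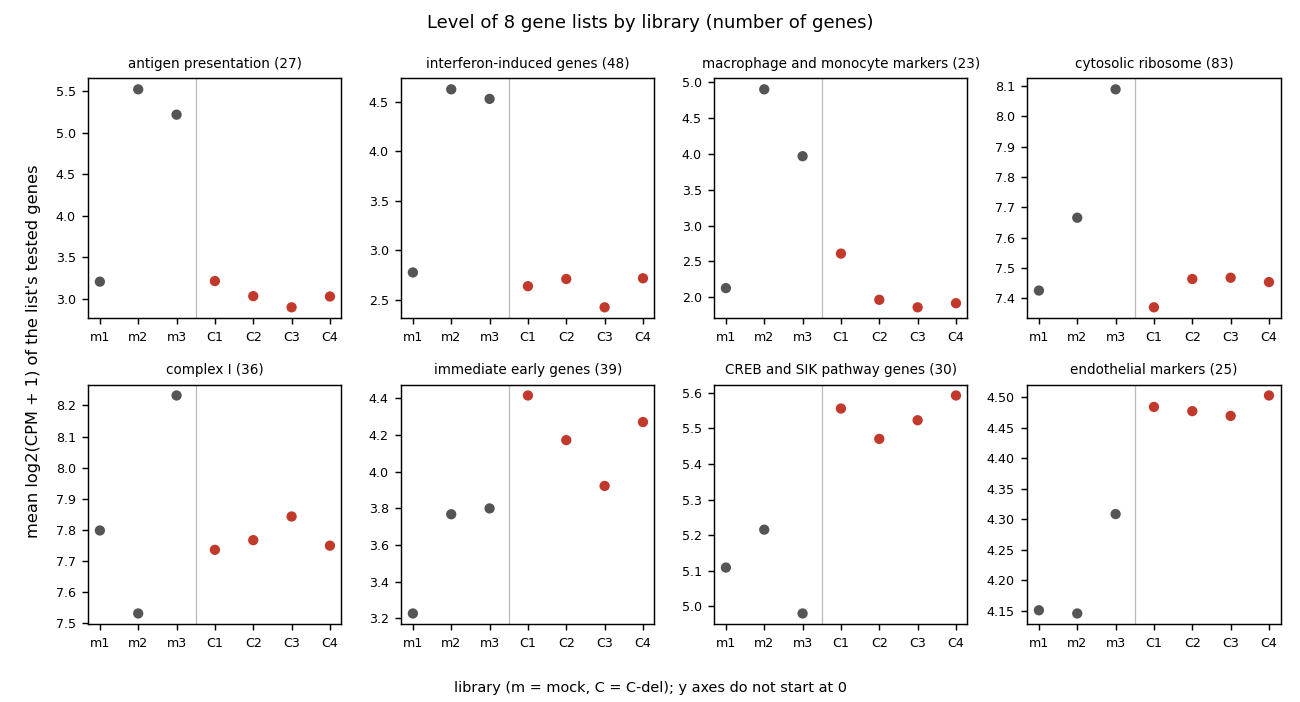
Mean log2(CPM + 1) of the tested genes of 8 lists in each library, with mock libraries in grey and C-del libraries in red, on axes that do not start at 0. The 3 immune lists are high in mock libraries 2 and 3 alone, the ribosomal list is highest in mock library 3, and the immediate early, CREB and SIK, and endothelial lists are higher in all 4 C-del libraries than in any mock library.

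Genes that were higher with C-del by comparison with mock libraries 2 and 3 included Klhl38, Ppargc1b and Fbxo32. Klhl38, a muscle ubiquitin ligase adaptor, was at 23.1, 15.4 and 12.3 CPM with mock and 31.9, 33.2, 32.3 and 37.1 CPM with C-del, with mock library 1 between the other mock libraries and the C-del libraries. Ppargc1b, a coactivator of mitochondrial genes, was at 33.4, 27.6 and 20.2 and 46.3, 43.7, 41.2 and 49.3 CPM. Fbxo32, the atrophy ligase atrogin-1, was at 178, 125 and 129 and 219, 257, 178 and 212 CPM, so that mock library 1 reached the lowest C-del library. The clock gene Per1 had a log2 fold change of 0.65 (edgeR, adjusted p = 0.171), at 47.1, 30.4 and 37.1 CPM with mock and 50.7 to 67.7 CPM with C-del.

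With the mean level of the antigen presentation list as a covariate, edgeR again called 2 of 14220 entries (0.0141%), Lsmem2 and Sik1. Sik1 then had a log2 fold change of 2.34 (adjusted p = 0.0412), whereas Slc25a25 had 1.93 (adjusted p = 0.204). In this fit the contrast rests largely on mock library 1, since the score separates mock libraries 2 and 3 from the rest. Without mock library 1 the same fit called 0 entries, although 2354 had an unadjusted p under 0.05. It also called 0 without C-del library 2, where 398 had an unadjusted p under 0.05, 1 without C-del library 1 or 4, and 6 and 4 without mock library 2 and 3. DESeq2 with this covariate called 29.

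The female effect was then set against that of adult males given the same vectors, 4 mock and 4 C-del libraries, in a fit of all 15. Sex and table cannot be told apart there, because each sex came in a table of its own. The female minus male effect passed for 26 higher (0.17%) and 28 lower entries (0.183%) of 15272 (edgeR, adjusted p under 0.05). The count was 1817 without mock library 1, 141 without mock library 2 and 35 without mock library 3, and 10, 14 and 17 without C-del libraries 2, 3 and 4. Slc25a25 did not pass, with log2 fold changes of 1.92 in females and 2.09 in males and a difference of -0.16 ± 0.18 (SE; adjusted p = 0.666), and a p that misses the threshold does not show that they are alike. Apold1 did differ, at 2.88 in females and 0.55 in males (difference 2.33 ± 0.38; edgeR, adjusted p = 0.0215). Egr1 was 1.77 in females and -2.06 in males (adjusted p = 0.0225). Both differences missed the threshold without mock library 3 (edgeR, adjusted p = 0.0595 for Apold1 and 0.0583 for Egr1) and without C-del library 2 (0.0509 and 0.0521).

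The 5 genes with the smallest p on the higher side were Mcf2l, Socs2, Gprc5c, the Notch ligand Jag1 and the heparan sulfate enzyme Hs2st1. Mcf2l was 1.03 in females and -0.28 in males (edgeR, adjusted p of the difference = 0.00195). Socs2, which damps growth hormone signals, was 0.51 and -1.42, and Gprc5c, an orphan receptor, was -0.06 and -1.08, so that for these the larger absolute log2 fold change was in males. On the lower side were Ddit4, an inhibitor of mTORC1 (0.23 in females, 2.3 in males), the chaperones Hsp90aa1 (0.05 and 1.0) and Dnaja1 (-0.05 and 0.77), the polyamine oxidase Smox and Tmem37. The differences of Smox and Tmem37 missed the threshold without C-del library 2 (edgeR, adjusted p = 0.0521 for both) and without C-del library 3 (0.0638 for both), and that of Tmem37 also without C-del library 4 (0.0509). Ddit4 was at 7.02, 11.1 and 11.3 CPM in female mock and 11.2, 10.5, 12.3 and 12.3 CPM in female C-del libraries, groups that overlapped. Of the 125 higher set-apart genes, copies included, 89 had the same sign in males, with a male median log2 fold change of 0.24 against a female median of 1.02. Of the 36 lower set-apart genes, 21 had the same sign in males, with a male median of -0.05 against a female median of -1.02. Of the 801 lower genes that followed mock libraries 2 and 3, 347 had the same sign in males, where the median was 0.04. Of the 232 higher genes that followed them, 117 had the same sign in males. The share with the same sign over all tested genes was not computed.

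**Figure D5:**
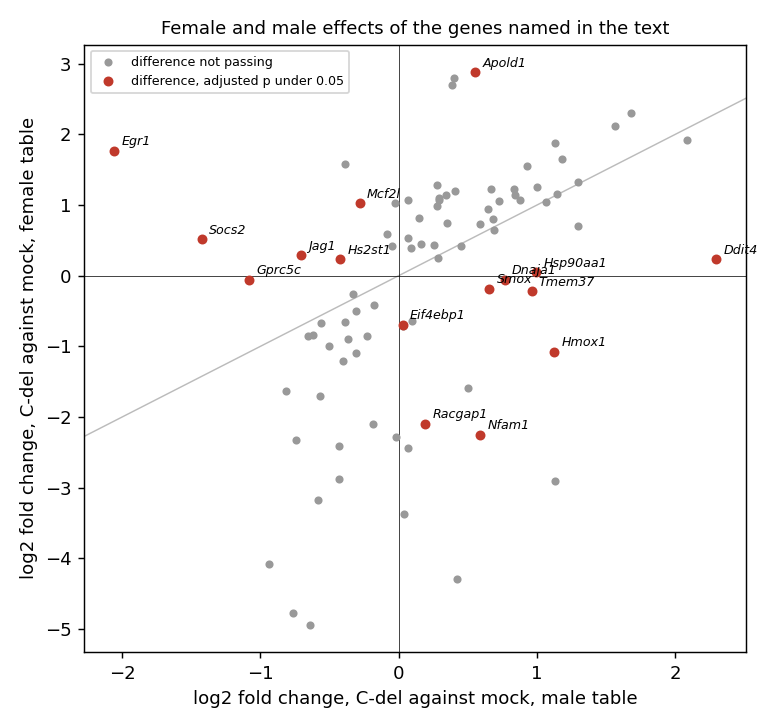
Log2 fold change of C-del against mock in the male table (horizontal axis) and the female table (vertical axis) for 87 of the genes named here, without Lsmem2 and Igkc, with the line of equal effects in grey. The 16 red points passed the test of the difference, and Egr1 and Nfam1 lie farthest from the line among them.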

How the data were processed

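RNA-seq libraries of tibialis anterior muscle from female mice, 3 mock and 4 C-del, were compared, and 8 male libraries (4 and 4) entered the female minus male contrast only. The authors deposited expected counts per gene, estimated counts that need not be whole and carry no normalisation. The submitters' processing notes name featureCounts 2.0.0 and GRCm38.p6, and the labels' protocols name a TruSeq Stranded mRNA kit. Neither the aligner nor the strand setting is given in the sources used here. Of 42396 entries, 40017 matched RefSeq symbols and 2379 were copies at further loci.

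Counts were rounded, filtered with filterByExpr (minimum count 10), scaled by TMM and tested with edgeR 4.0.16 (robust quasi-likelihood, R 4.3.3, Benjamini-Hochberg over all entries, threshold 0.05). SE was taken as the absolute log2 fold change over the square root of F. DESeq2 1.42.0 and limma 3.58.1 served as alternatives, and Python 3.11.15 with matplotlib 3.10.9 drew the plots. The fits were tested on simulated data. CPM and scores use a pseudocount of 1 where logged. Library pairs of a group differed beyond sampling noise, with a chi-square per gene of at least 3.38. Male columns match the labels by group alone.

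The lists (49, with 1189 names, 1181 of them in the table) and the rule for named genes were written with earlier results of these data known. By the rule, named genes are Lsmem2, the passing genes, the 15 higher and 15 lower set-apart genes and the 15 genes following mock libraries 2 and 3 with the smallest p, up to 4 members per list, 5 genes per direction of the female minus male contrast, and check genes. The set-apart and following genes needed a mean of at least 1 CPM. Which of these the text describes, with a few further list members, was decided once values were known. Gbp2 and Igtp were chosen for their windows after the search. A gene that the rule names is not reported here.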

Additional observations from a re-analysis of the deposited data

Results flagged for a closer look

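Within the 4 C-del libraries, 1 library stood apart from the other 3 in 5 of the 89 genes looked at, where chance alone gives about 1 in 20. Tob2 was highest in C-del library 4, at 121 CPM. Mcf2l was lowest in C-del library 3, at 13.8 CPM. Rmi2 was lowest in C-del library 4, at 0.705 CPM. C-del library 1 stood apart in Myoz2 at 127 CPM, the lowest of its group, and in Hmox1 at 5.19 CPM, the highest.

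The female and male effects of C-del differed by a test of the difference itself (edgeR, adjusted p under 0.05) in 16 of the genes looked at, with each sex in its own table. The female minus male log2 fold change was 3.82 for Egr1, 2.33 for Apold1, 1.94 for Socs2, 1.31 for Mcf2l, 1.02 for Gprc5c, 1.0 for Jag1 and 0.66 for Hs2st1. It was -2.84 for Nfam1, -2.29 for Racgap1, -2.2 for Hmox1, -2.06 for Ddit4 and -1.18 for Tmem37. The remaining differences were -0.95 for Hsp90aa1, -0.84 for Smox, -0.82 for Dnaja1 and -0.73 for Eif4ebp1. Leaving out single female libraries took the adjusted p of 8 of these genes above 0.05 in at least 1 case: Egr1, Apold1, Nfam1, Racgap1, Hmox1, Tmem37, Smox and Eif4ebp1. The highest adjusted p (edgeR) among those fits was 0.109, for Nfam1 and Eif4ebp1 without C-del library 2. The other 8 genes stayed under 0.05 in all 11 alternatives tried. Nfam1 was high in female mock libraries 2 and 3, at 6.05 and 5.17 CPM against 1.87 CPM in mock library 1. Its difference was -2.52 without mock library 2 (edgeR, adjusted p = 0.0618) and -2.7 without mock library 3 (adjusted p = 0.0707).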

How the results depend on the processing

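The count of 2 passing entries was also 2 with RLE factors, a mean of at least 1 CPM, a fit that was not robust, limma-voom with quality weights and unrounded counts. It was 376 with DESeq2, 16 with no filter on low counts, 777 when all 15 libraries were fitted together and 4 when mock libraries 2 and 3 were both left out, a fit in which the spread comes from C-del libraries alone. Leaving out one library at a time gave 1 to 1050 entries. With the replicate block on the title numbers the count was 2. Same-numbered libraries had correlations of -0.13, -0.01 and -0.04 between their deviations from the group means, and differently numbered ones had -0.21 to 0.22. With so few libraries these values cannot decide whether the numbers pair them. With the immune score in the model, the count of 2 became 29 with DESeq2, 8 with no filter and 1 with an interferon-induced score, and 0 to 6 without single libraries. The female minus male count of 54 became 656 with DESeq2 and 10 to 1817 without single libraries. Of the set-apart genes, 161 in all, there were 243 at a share of 0.33, 40 at a 2-fold minimum and 254 at a pseudocount of 0.25, and 167 to 295 without single libraries. Genes following mock libraries 2 and 3, 1033 in all, numbered 486 at a 2-fold minimum and 1044 to 2687 without single libraries. Of the 79 genes followed through 17 alternatives, 1 changed direction: Igkc had a log2 fold change of 5.73 without mock libraries 2 and 3, against a mock library at 0. The cause of these changes was not tested. Slc25a25 kept log2 fold changes of 1.81 to 2.03, and its adjusted p missed the threshold without mock library 3 and without mock libraries 2 and 3 (0.246), where that of Lsmem2 was 0.226. Mock library 1 could not be left out of the description of set-apart and following genes, which rests on it. Leaving single libraries out of both of those counts was an alternative chosen after seeing the data. At 9285140 to 12054900 counts per library, genes near 1 CPM rest on few counts.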

Other observations

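No gene passed in the lists of oxidative metabolism. In the list of fatty acid uptake and oxidation, with 39 genes tested, 34 had a positive log2 fold change, with a median of 0.14, where 6764 of all 14220 entries did. By library number, its genes averaged 7.12, 6.98 and 6.8 on log2(CPM + 1) with mock and 7.2, 7.25, 6.9 and 7.15 with C-del. Of 32 genes of the TCA cycle and branched-chain oxidation 28 had a positive one, with a median of 0.13. Pdha1, a subunit of pyruvate dehydrogenase, was at 849, 759 and 659.7 CPM with mock and 897, 1007, 1116 and 947 CPM with C-del (log2 fold change 0.39 ± 0.12, SE; edgeR, adjusted p = 0.246). In the TCA list the mean log2(CPM + 1) came to 8.65, 8.38 and 8.47 for mock libraries 1, 2 and 3 against 8.64, 8.64, 8.64 and 8.65 for C-del libraries 1 to 4, so mock library 1 lay level with the C-del libraries and mock libraries 2 and 3 lay below them. Genes of the unfolded protein and integrated stress response had a median of -0.28. Of these 27 genes, 8 followed mock libraries 2 and 3 downward, a larger share than the 5.63% of all genes. The stress response genes averaged 4.22, 4.75 and 4.55 with mock and 4.3, 4.25, 4.24 and 4.3 with C-del on the same scale.

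At the neuromuscular junction, 5 of 33 tested genes were higher and 3 lower with p under 0.05 before adjustment, where 4.81% and 7.09% of all entries were. Among the higher ones, Lsmem2 itself, the delivered gene, was the one that passed. Kcnn3, a calcium-activated potassium channel, was at 6.7, 6.76 and 2.2 CPM with mock and 9.04, 12.2, 12.8 and 11.1 CPM with C-del (log2 fold change 1.1 ± 0.32, SE; edgeR, adjusted p = 0.215). Basement membrane collagens Col4a1 and Col4a2, a head-to-head gene pair, had log2 fold changes of 0.43 and 0.54. Mthfd1l, a mitochondrial enzyme of folate metabolism, and the phosphatase Ptpn18 followed mock libraries 2 and 3, at 0.988, 2.98 and 2.64 and 1.76, 6.76 and 5.28 CPM in the mock libraries, with C-del libraries at 0.201 to 0.537 and 0.552 to 1.25 CPM. The GTPase Tgtp2, which has a near-identical neighbour, was at 8.01, 51.2 and 24.5 CPM with mock and 3.21 to 4.23 CPM with C-del.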
